A study of Homo sapiens with 8 samples.

Results

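The BCL2 family was followed here through 10 genes in 2 human mammary epithelial lines, with ginkgolic acid or with its solvent. The genes were taken by name: each is the only row of its symbol in both deposited tables, and they stand among 42124 gene rows analysed for MCF10A and 42154 for the second line. MCF10A is a non-tumorigenic line of breast epithelium. The second line is MCF10A that overexpresses the NOTCH1 intracellular domain, the active fragment of the receptor. The vector, its promoter and whether the line is 1 clone were not given in the sources used here. In all, the 4 groups were MCF10A with DMSO, MCF10A with 30 µM ginkgolic acid, the NOTCH1 line with DMSO and the NOTCH1 line with 30 µM ginkgolic acid. Ginkgolic acid is a plant phenol that inhibits SUMO conjugation. Treatment lasted 3 days, each group had 2 samples, and all groups grew in the same medium with horse serum, insulin, cholera toxin, epidermal growth factor and hydrocortisone.

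Proteins of the BCL2 family decide whether the outer membrane of mitochondria is opened, the step that releases cytochrome c and starts the caspase cascade. The guardians MCL1, BCL2 and BCL-xL (from BCL2L1) keep the membrane closed, the effectors BAX and BAK (from BAK1) form the pore, and the BH3-only proteins BIM (from BCL2L11), NOXA (from PMAIP1), PUMA (from BBC3), BID and BIK bind guardians, and some of them also activate effectors. NOXA binds chiefly MCL1, and BID is cut by caspase 8, which joins the death receptor pathway to mitochondria. MCF10A cells are a common model of epithelial cell death after loss of matrix contact, in which BIM has a known part. PMAIP1 and BBC3 are known targets of the factors of the integrated stress response. MCL1, BCL2L1 and BCL2L11 make isoforms of different or opposite function, which a value per gene adds together.

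The deposited values were 1 FPKM (fragments scaled by transcript length and library size) for each gene and group. No value has a replicate error, no difference could be tested, and the depth of the libraries is unknown. "Higher" and "lower" therefore compare the deposited values, and a difference was counted from 2-fold upward, that is, from a log2 ratio of 1 or more on either side of 0. Measured genes are those that reached 1 FPKM in 1 or both groups of a table and were listed at 0 in neither, so that a ratio could be formed. The tables were normalized separately, so levels of the lines set side by side carry an unknown factor.

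NOTCH1 itself was at 5.03 FPKM in the DMSO group of the NOTCH1 line and at 11.4 FPKM in that of MCF10A, which goes against the label. The ginkgolic acid groups had 12.4 and 6.18 FPKM in the same order. This value covers the whole gene and not the intracellular domain alone. The line is called NOTCH1-labelled below. Of the 8 markers of mammary basal epithelium, 6 had a row of their own in the MCF10A table and 7 in the other, and none of these was at 0. They summed to 300.1 FPKM with ginkgolic acid and 328 with DMSO in MCF10A, and to 1034 and 1261 in NOTCH1-labelled cells, where KRT5 (614.0 and 990.2) has a row of its own. In MCF10A the similar sums cover single markers that differed by over 2-fold: KRT14 (5.68 with ginkgolic acid and 21.8 with DMSO), TP63 (8.53 and 20.5) and CDH1 (39.2 and 96.6) were lower and EPCAM (110.2 and 41.2) higher. EPCAM was over 2-fold higher in NOTCH1-labelled cells as well (223.0 and 91.6). Of 8 markers of blood, endothelial and mesenchymal cells, 6 had a row of their own, with none at 0. Their summed level was 19.1 FPKM with ginkgolic acid and 11.8 with DMSO in MCF10A, and 16.8 and 9.76 in NOTCH1-labelled cells. In MCF10A, COL3A1 (2.74 and 0.0172), CD3E (2.31 and 0.224), VWF (2.095 and 0.342) and PTPRC (3.555 and 2.03) were higher with ginkgolic acid. COL1A1 (5.285 and 5.33) and PDGFRB (3.14 and 3.89) were not. In NOTCH1-labelled cells CD3E (0.413 and 0.902) and COL3A1 (1.01 and 1.485) were lower and the other markers higher. The part of other cells in the values below was not tested, and in such bulk RNA fewer cells of a type and less RNA per cell cannot be told apart.

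To show the sequence in front of the genes that were higher with ginkgolic acid by 2-fold or more, the 250 bases before the start sites in RefSeq (GRCh38.p14) were searched. Entries were found for 8 of the 10 genes, all but MCL1 and BIK. Motifs were searched on both strands: TGACGT, the core of the cyclic AMP response element that ATF and CREB factors bind, TGATGNAA, the core of the site shared by ATF4 and C/EBP factors, and CACGTG, an E-box. Stretches are printed 5′ to 3′ on the strand of the gene, up to the first base that GENCODE 29 annotates to it, with matches to these 3 motifs in capitals. PMAIP1 is shown because it was at least 2-fold higher in both lines (chr18:59899746-59899947, plus strand), BBC3 because it was so in NOTCH1-labelled cells (chr19:47232767-47232917, minus strand), and BAX because it was not so in either line (chr19:48954625-48954814, plus strand).
PMAIP1: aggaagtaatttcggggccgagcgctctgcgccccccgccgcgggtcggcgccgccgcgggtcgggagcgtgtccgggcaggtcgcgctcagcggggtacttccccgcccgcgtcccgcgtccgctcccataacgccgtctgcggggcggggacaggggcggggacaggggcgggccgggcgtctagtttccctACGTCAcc
BBC3: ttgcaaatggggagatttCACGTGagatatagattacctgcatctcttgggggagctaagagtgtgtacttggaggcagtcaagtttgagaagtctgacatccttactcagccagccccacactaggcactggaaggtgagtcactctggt
BAX: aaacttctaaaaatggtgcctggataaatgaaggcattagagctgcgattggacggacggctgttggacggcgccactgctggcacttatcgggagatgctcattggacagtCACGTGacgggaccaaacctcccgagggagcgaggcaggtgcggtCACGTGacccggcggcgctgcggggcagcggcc

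PMAIP1 was the only gene of the 8 with a match to TGACGT, which begins 56 bases before the start site and reads as its reverse complement above. That motif was found in 7.1% of all 35116 promoter windows of this length. CACGTG, found in 6.3% of windows, occurred once in front of BBC3, 232 bases before the start, and 4 times in front of BAX, at 138, 93, 45 and 14 bases, of which 2 lie in the printed stretch. One E-box of BID lies in 2 of its 5 windows. TGATGNAA, found in 3.1% of windows, matched in none of the 8 genes. The 2 windows of BCL2L1, which was also at least 2-fold higher in NOTCH1-labelled cells, held none of the 3 motifs. No stretch of BCL2L1 is printed, and each stretch that is printed has a match. The GC box GGGCGG and the letters CCAAT, searched as well and not in capitals, stood in 42.6% and 32.0% of all windows, and PMAIP1 had 4 GC boxes. These matches are letters in a window and were not tested as binding sites.

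Among the guardians, MCL1 was by far the most abundant and BCL2 close to undetected. MCL1 (chromosome 1, 150547031 to 150552066, hg19), a short-lived guardian, was at 140 FPKM with DMSO and 124 with ginkgolic acid in MCF10A. In NOTCH1-labelled cells it was at 144 FPKM with DMSO and 343 with ginkgolic acid. The other 3 groups thus lay close together below the NOTCH1-labelled ginkgolic acid group, with log2 ratios of −0.18 in MCF10A and 1.25 in NOTCH1-labelled cells. BCL2L1 (chromosome 20, 30252254 to 30311792), which encodes BCL-xL, was at 18.2 FPKM with DMSO and 12.6 with ginkgolic acid in MCF10A. In NOTCH1-labelled cells it was at 3.87 and 22.9 FPKM, a 5.92-fold higher value with ginkgolic acid. Here the NOTCH1-labelled DMSO group was the one that stood apart, below the other groups. BCL2 (chromosome 18, 60790578 to 60987361) stayed under 1 FPKM in all 4 groups, at 0.743 and 0.472 in MCF10A and 0.964 and 0.509 in NOTCH1-labelled cells with DMSO and ginkgolic acid, and was not counted as measured.

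The effectors differed by less than 2-fold with treatment in both lines. BAX (chromosome 19, 49458071 to 49465056 in the MCF10A table) was at 38.6 FPKM with DMSO and 22.3 with ginkgolic acid in MCF10A, and at 27.8 and 38.7 in NOTCH1-labelled cells. Its log2 ratios of −0.79 and 0.47 lay on opposite sides of 0, both within 2-fold. BAK1 (chromosome 6, 33540328 to 33548036 in the MCF10A table), the second pore-forming gene, was low throughout, at 1.66 and 1.25 FPKM in MCF10A and 1.84 and 2.72 in NOTCH1-labelled cells. Its ratios, −0.41 and 0.56, were also on opposite sides of 0. BAX transcript was thus far above that of BAK1 in every group.

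The BH3-only genes held the largest differences in both directions. PMAIP1 (chromosome 18, 57567179 to 57571580 in the MCF10A table), which encodes NOXA, was at 5.52 FPKM with DMSO and 22.0 with ginkgolic acid in MCF10A, a 3.99-fold higher value. In NOTCH1-labelled cells it was at 14.8 and 101 FPKM, 6.78-fold higher. The NOTCH1-labelled ginkgolic acid group was the highest and the MCF10A DMSO group the lowest. BBC3 (chromosome 19, 47724078 to 47736023 in the MCF10A table), which encodes PUMA, was at 20.4 FPKM with DMSO and 28.7 with ginkgolic acid in MCF10A. In NOTCH1-labelled cells its values were 10.7 and 36.2 FPKM, so its log2 ratios were 0.49 and 1.76. The pair of stress-responsive genes was thus on the same side in both lines, and BBC3 reached 2-fold in NOTCH1-labelled cells alone. Whether the lines differ was not tested.

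BIK (chromosome 22, 43506753 to 43525718), a BH3-only gene whose protein resides mainly at the endoplasmic reticulum, went the other way. It was at 10.3 FPKM with DMSO and 1.52 with ginkgolic acid in MCF10A, 6.78-fold lower. In NOTCH1-labelled cells it was at 18.5 and 5.72 FPKM, 3.23-fold lower. Both ginkgolic acid groups lay below both DMSO groups. BID (chromosome 22, 18216905 to 18257536 in the MCF10A table), at 20.1 and 12.2 FPKM in MCF10A and 48.4 and 27.4 in NOTCH1-labelled cells, was also lower with ginkgolic acid, with log2 ratios of −0.72 and −0.82 that missed 2-fold. BCL2L11 (chromosome 2, 111876954 to 111924587 in the MCF10A table), which encodes BIM, was at 6.26 and 8.51 FPKM in MCF10A and at 5.97 and 9.95 in NOTCH1-labelled cells, with log2 ratios of 0.44 and 0.74. It was the steadiest of the BH3-only genes across the 4 groups.

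**Figure D1:**
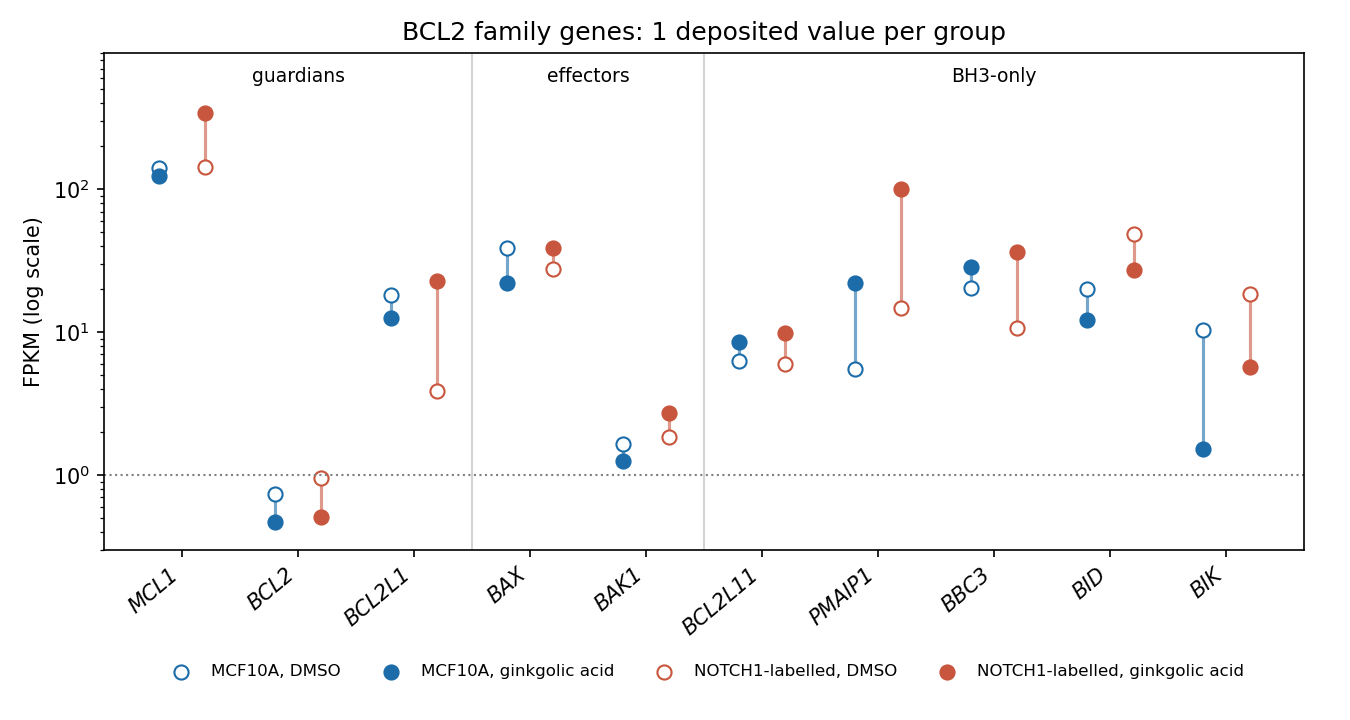
FPKM of the 10 BCL2 family genes on a log axis, with open circles for DMSO, filled circles for ginkgolic acid, blue for MCF10A and red for NOTCH1-labelled cells; each point is 1 deposited value per group without an error, lines join the groups of a table, and the dotted line marks 1 FPKM. PMAIP1 is higher and BIK lower with ginkgolic acid in both lines, and BCL2L1 and MCL1 are at least 2-fold higher in NOTCH1-labelled cells alone.

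Of the 9 measured members, 1 (PMAIP1) was higher by 2-fold or more with ginkgolic acid in MCF10A and 1 (BIK) was lower by as much. Among all 17667 measured genes of that table with a ratio, 24.4% were higher and 15.2% lower by this rule. Among the 13029 genes that reached 1 FPKM in each group, as all 9 members did, the shares were 11.8% and 14%. The median log2 ratio of the members was −0.41, and that of these 13029 genes −0.11. The count in MCF10A was thus near the share of all genes in either direction.

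In NOTCH1-labelled cells, 4 of the 9 (MCL1, BCL2L1, PMAIP1 and BBC3) were higher by 2-fold or more and 1 (BIK) was lower by as much. Of all 19525 measured genes with a ratio, 18.9% were higher and 18.9% lower by this rule. Of the 14397 genes that reached 1 FPKM in each group, 15.6% were higher and 9.06% lower. The median of the members was 0.74, against 0.14 for these genes. Guardians and BH3-only genes each gave 2 of the 4 higher members. MCL1 and BCL2L1 are all of the measured guardians, whereas the BH3-only genes BCL2L11, BID and BIK were not higher by this rule.

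To compare the responses, the difference of the log2 ratios was taken, NOTCH1-labelled less MCF10A. The difference was at least 1 in favour of the NOTCH1-labelled response for 5 of the 9 members and at least 1 in the other direction for 0, against 21.6% and 22.5% of 15499 genes. It was 3.09 for BCL2L1, 1.43 for MCL1, 1.27 for BAX, 1.26 for BBC3 and 1.07 for BIK. For BIK both ratios were below 0, and the difference became 0.63 with log2(FPKM + 1) and 0.82 after the median ratio of each table was removed. The same removal left BAX and BBC3 at 1.02 each. For BAK1 it was 0.97 and for PMAIP1 0.77. BCL2L11, at 0.29, and BID, at −0.10, had nearly the same ratio in both lines. Of the measured members, 3 (BCL2L11, PMAIP1 and BBC3) were above 0 in both lines, 2 (BID and BIK) below 0 in both, and 4 (MCL1, BCL2L1, BAX and BAK1) below 0 in MCF10A and above 0 in NOTCH1-labelled cells. Of the 15499 genes, 29.4% were above 0 in both, 24.6% below 0 in both and 45.9% on opposite sides, so 4 of 9 is near the share of all genes. The 4 are guardians and effectors, and the 5 on one side are BH3-only genes. This split by role holds for the 9 alone. BCL2, a guardian left out for its low level, was below 0 in both lines (−0.65 and −0.92). Outside the 10, the BH3-only genes HRK and BMF (−0.086 and 0.155) were on opposite sides. BAD, also BH3-only, was above 0 in both (0.199 and 0.449). BOK, a relative of BAX, was below 0 in both (−2.145 and −0.088). BMF, BAD and BOK were named after their values were seen.

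**Figure D2:**
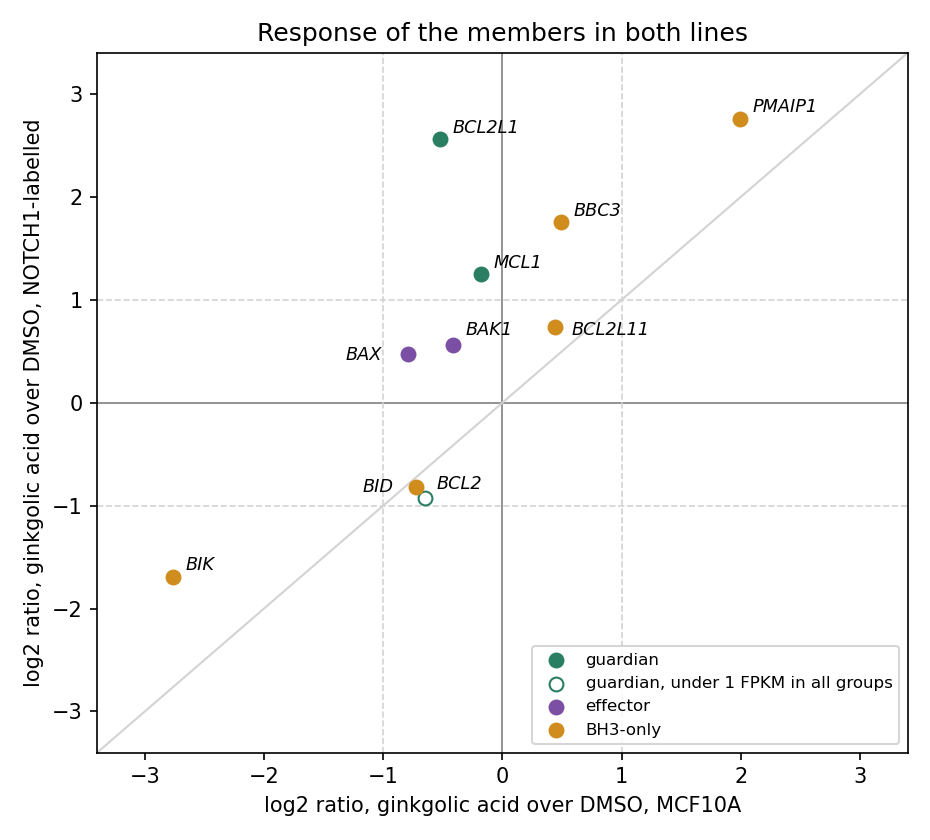
Log2 ratio of ginkgolic acid over DMSO in MCF10A (x axis) against that in NOTCH1-labelled cells (y axis) for each member, coloured by role; dashed lines mark 2-fold and the diagonal marks equal ratios, and no point has an error. The guardians MCL1 and BCL2L1 and the effectors BAX and BAK1 lie in the upper left quadrant, and the open circle is BCL2, which was under 1 FPKM in all groups.

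The balance of the members within a group does not depend on the factor between the tables. PMAIP1 stood to MCL1, its main partner, at a ratio of 0.0393 with DMSO and 0.178 with ginkgolic acid in MCF10A, and at 0.103 and 0.294 in NOTCH1-labelled cells. The order of the 4 groups was the same in this ratio as in the PMAIP1 level. BBC3 stood to MCL1 at 0.145 and 0.232 in MCF10A and at 0.0743 and 0.105 in NOTCH1-labelled cells. BCL2L11 to MCL1 went from 0.0446 to 0.0688 in MCF10A but from 0.0414 to 0.0290 in NOTCH1-labelled cells, where the MCL1 level was higher with ginkgolic acid.

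The ratio of BCL2L1 to MCL1 was 0.130 with DMSO and 0.102 with ginkgolic acid in MCF10A. In NOTCH1-labelled cells it was 0.0269 and 0.0668. BCL2L1 to BAX was at 0.471 and 0.568 in MCF10A and at 0.139 and 0.592 in NOTCH1-labelled cells. In both ratios the NOTCH1-labelled DMSO group was the lowest of the 4, so its low BCL2L1 value is also seen within its own group. BAX to MCL1 was lower with ginkgolic acid in both lines, at 0.275 and 0.180 in MCF10A and at 0.193 and 0.113 in NOTCH1-labelled cells.

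Among the BH3-only transcripts, PMAIP1 and BBC3 took a larger and BIK and BID a smaller share with ginkgolic acid in both lines. PMAIP1 made up 8.8% of the summed FPKM of the 5 BH3-only genes with DMSO and 30.2% with ginkgolic acid in MCF10A, and 15.1% and 56.0% in NOTCH1-labelled cells. BIK went from 16.5% to 2.1% and from 18.8% to 3.2%. BID went from 32.1% to 16.7% and from 49.2% to 15.2%, and BBC3 from 32.6% to 39.4% and from 10.9% to 20.1%. A share also depends on the levels of the other genes. In NOTCH1-labelled cells BID itself was at 48.39 FPKM with DMSO and 27.38 with ginkgolic acid, and PMAIP1 at 14.85 and 100.7. The most abundant BH3-only gene was BBC3 in both MCF10A groups, where it was within 1.02-fold of BID with DMSO. In NOTCH1-labelled cells it was BID with DMSO and PMAIP1 with ginkgolic acid. Summed by role, BH3-only genes held 23.9% and 31.3% of all member FPKM in MCF10A and 35.5% and 30.6% in NOTCH1-labelled cells, and guardians 60.8% and 58.7% and then 53.7% and 62.3%.

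**Figure D3:**
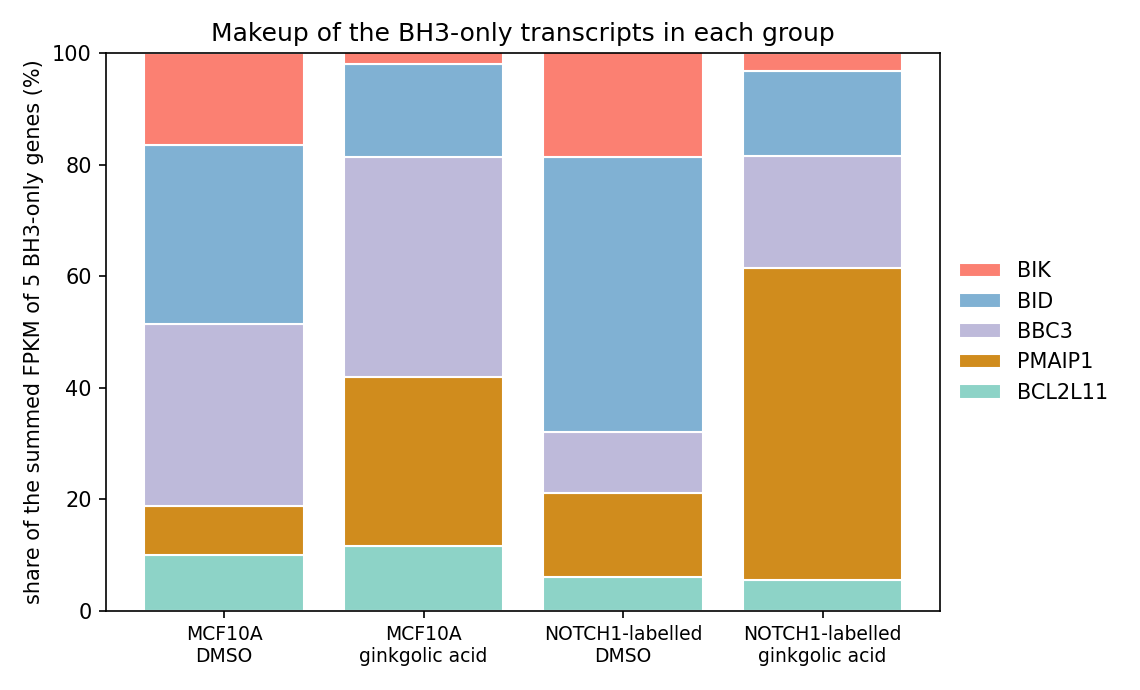
Share of each BH3-only gene in the summed FPKM of the 5 (y axis, percent) in the 4 groups (x axis), from 1 deposited value per gene and group without an error. The PMAIP1 share is 30.2% and 56.0% in the ginkgolic acid groups and 8.8% and 15.1% in the DMSO groups.

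MCL1 ranked first of the 10 and BCL2 last in all 4 groups, and BAK1 held rank 9 in each. PMAIP1 held rank 8 with DMSO and rank 4 with ginkgolic acid in MCF10A, and ranks 5 and 2 in NOTCH1-labelled cells. BCL2L1 held rank 8 in the NOTCH1-labelled DMSO group and rank 5 or 6 elsewhere. Among genes with at least 1 FPKM in the same group, MCL1 lay between percentile 95.3 and 98.0. PMAIP1 lay at 43.4 and 79.5 in MCF10A and at 73.1 and 92.5 in NOTCH1-labelled cells. Neighbours in the order such as BAX and PMAIP1 in MCF10A with ginkgolic acid, 1.01-fold apart, cannot be ordered without a replicate error.

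Some members share their position with other annotated genes. MIR3190 and MIR3191 lie inside BBC3 and MIR3198-1 inside BID. ABALON and AL117381.1 lie on the opposite strand inside BCL2L1, MIR4435-2HG overlaps BCL2L11 from the opposite strand, GGNBP1 overlaps BAK1 from the opposite strand, and ADAMTSL4-AS1 overlaps MCL1 on the same strand. AC022726.1 and AC022726.2 lie inside BCL2. No other gene of GENCODE 29 overlaps PMAIP1, BAX or BIK. Whether the counting used the strand was not given in the sources used here, and the part of these genes in the values was not tested.

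The gene with the highest mean level in each role was compared with 11774 genes that reached 1 FPKM in all 4 groups, by the Euclidean distance of their log2 values over the 4 groups after the gene mean was removed. Nearest to MCL1 were ATG4C (distance 0.0512), CREB3L4 (0.108) and LINC00116 (0.117). ATG4C was at 6.27 and 5.38 FPKM in MCF10A and at 6.37 and 14.6 in NOTCH1-labelled cells. Nearest to BAX were FAM122B (0.0295), HDAC1 (0.0612) and SPIN1 (0.0692). HDAC1, a histone deacetylase, was at 77.9 and 47.0 FPKM in MCF10A and 56.5 and 77.3 in NOTCH1-labelled cells. Nearest to PMAIP1 were RP11-574M7.1 (0.0903), the proliferation marker MKI67 (0.405) and EME1 (0.596), so beyond the first of these PMAIP1 had no close neighbour. MKI67 was at 2.46 and 8.83 FPKM in MCF10A and 4.53 and 40.1 in NOTCH1-labelled cells. These are likenesses over 4 values.

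Other genes of the family and of the apoptosis machinery were grouped in 6 lists. Their counts stand against the shares of all measured genes, 24.4% higher and 15.2% lower in MCF10A and 18.9% each way in NOTCH1-labelled cells, and against medians over those genes of 0.07 and 0.06. Most measured genes of the lists reached 1 FPKM in each group. Among all such genes, 11.8% were higher and 14% lower in MCF10A, and 15.6% and 9.06% in NOTCH1-labelled cells. Their medians were −0.11 and 0.14. Of the 13 further BCL2 family and related genes, 10 were measured in MCF10A and 11 in NOTCH1-labelled cells. In MCF10A, 3 were higher and 1 lower by 2-fold or more, and the median was 0.13. These counts were near the shares of all measured genes. The 3 of 10 higher is above the 11.8% of genes at 1 FPKM in each group, but 1 of the 3, BCL2L15, was under 1 FPKM with DMSO. In NOTCH1-labelled cells 0 were higher and 3 lower, with a median of −0.21. The 3 genes were the same: HRK, a BH3-only gene, BCL2L14 and BCL2L15. HRK was at 5.49 FPKM with DMSO and 15.4 with ginkgolic acid in MCF10A and at 6.45 and 2.71 in NOTCH1-labelled cells. BCL2L14, which holds an annotated small RNA, was at 1.29 and 4.53 and then at 6.40 and 2.30 FPKM, and BCL2L15 at 0.510 and 2.56 and then at 2.38 and 1.01. The lower gene in MCF10A was BOK, a relative of BAX, at 3.49 and 0.789 FPKM, named after its value was seen. BNIP3L, a mitophagy receptor, had log2 ratios of 0.16 and −0.74. BCL2L2 shares its row with PABPN1 and has no value of its own.

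Of 10 measured genes for caspases and the apoptosome, 4 were lower and 0 higher by 2-fold or more in MCF10A, with a median of −0.62, beside 15.2% and 24.4% of all genes. In NOTCH1-labelled cells 0 of 10 were beyond 2-fold in either direction, with a median of 0.02, beside 18.9% of all genes each way. All 10 reached 1 FPKM in each group of both lines. Of all genes that did so in a line, 14% were lower and 11.8% higher in MCF10A, and 9.06% and 15.6% in NOTCH1-labelled cells. CYCS, which encodes cytochrome c, was at 393 FPKM with DMSO and 190.0 with ginkgolic acid in MCF10A and at 226 and 121 in NOTCH1-labelled cells. CASP6, an executioner caspase gene, was at 40.2 and 18.0 FPKM in MCF10A and at 24.1 and 20.5 in NOTCH1-labelled cells. ENDOG, a mitochondrial nuclease gene, had log2 ratios of −1.84 and 0.19, and CASP2, which holds annotated small RNAs, −1.56 and −0.50.

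Of the inhibitors of apoptosis, 5 of 6 were measured in each line, and 1, BIRC5, was at least 2-fold higher in both. In each line 1 of 5 is near the share of all measured genes that were higher, 24.4% in MCF10A and 18.9% in NOTCH1-labelled cells. The share of all genes higher by as much in both lines was not computed. BIRC5 encodes survivin, which also acts in mitosis, and was at 4.31 and 14.9 FPKM in MCF10A and at 3.88 and 78.7 in NOTCH1-labelled cells. BIRC3, a ubiquitin ligase gene and NF-κB target, was at 168 and 195 FPKM in MCF10A and at 373 and 167 in NOTCH1-labelled cells, the 1 gene of the 5 that was at least 2-fold lower there. BIRC7, the remaining gene of the list, was listed at 0 in 1 group of each table and had no ratio. It had 0.675 FPKM with ginkgolic acid in MCF10A and 1.05 FPKM with DMSO in NOTCH1-labelled cells. BIRC2 had log2 ratios of −0.63 and 0.05 and XIAP, which binds caspases directly, 0.05 and −0.57. XIAP and BIRC7 each hold an annotated small RNA. The medians of the list were 0.05 and 0.03.

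In the death receptor arm, 6 of 14 measured genes were lower and 0 higher by 2-fold or more in MCF10A, and the median was −0.74. The shares of all genes were 15.2% and 24.4%. In NOTCH1-labelled cells 4 of 13 were lower and 1 higher, with a median of −0.71, beside 18.9% of all genes in each direction. Of 13 genes measured in both lines, 8 were below 0 in both, 2 above 0 in both and 3 on opposite sides. Of the 15499 genes compared between the lines, 24.6% were below 0 in both, 29.4% above 0 in both and 45.9% on opposite sides. In the list, 3 genes were at least 2-fold lower in both lines: FADD, TRADD and TNFSF10. The share of all genes that were so in both lines was not computed. FADD, the adaptor that recruits caspase 8, was at 9.31 FPKM with DMSO and 0.731 with ginkgolic acid in MCF10A and at 6.95 and 1.41 in NOTCH1-labelled cells. TNFSF10, which encodes the ligand TRAIL, was at 27.4 and 5.78 FPKM and at 118 and 24.5. TRADD, an adaptor of the TNF receptor, was at 11.0 and 2.29 and at 5.67 and 2.24 FPKM. CASP10, a relative of caspase 8, was at 6.07 and 6.11 FPKM in MCF10A and at 9.66 and 1.44 in NOTCH1-labelled cells. The 1 higher gene, the decoy receptor gene TNFRSF10C, had 0.373 and 2.42 FPKM in NOTCH1-labelled cells; it was named after its value was seen. CASP8, whose product cuts BID, was chosen in the same way, at 35.1 and 11.9 FPKM in MCF10A and 46.9 and 28.6 in NOTCH1-labelled cells. The other receptor genes measured in both lines, also named after their values were seen, mostly stayed within 2-fold. Log2 ratios were 0.15 and 0.05 for FAS, −0.23 and −0.01 for TNFRSF10A and −0.52 and 0.91 for TNFRSF10B. For TNFRSF10D they were −0.03 and −0.76, and for TNFRSF1A −1.07 and 0.01. FAS holds an annotated small RNA.

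Genes for turnover of the members and for their membrane partners were close to even, with 0 of 8 beyond 2-fold in MCF10A and a median of 0.01. In NOTCH1-labelled cells the median was 0.47, with 0 of 8 higher and 1 lower by 2-fold or more. That gene was BTRC, a subunit of a ubiquitin ligase, at 3.53 and 5.97 FPKM in MCF10A and at 4.63 and 2.11 in NOTCH1-labelled cells. MARCH5 and HUWE1, ubiquitin ligase genes whose products act on MCL1 complexes, had log2 ratios of 0.27 and 0.72 and of 0.36 and 0.55. VDAC1, a channel of the outer membrane, had −0.13 and 0.58. BTRC, MARCH5 and HUWE1 hold annotated small RNAs.

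Regulators known to act on member genes went both ways. Of 10 measured, 5 were higher and 3 lower by 2-fold or more in MCF10A, and 5 and 1 in NOTCH1-labelled cells, with medians of 0.41 and 1.19. Of all genes, 24.4% were higher and 15.2% lower in MCF10A, and 18.9% each in NOTCH1-labelled cells. The 5 that were higher in both lines were ATF4, DDIT3, ATF3, CEBPB and TRIB3, and those with the largest ratios were DDIT3 (3.66 and 6.24) and TRIB3 (2.41 and 4.89). The share of all genes at least 2-fold higher in both lines was not computed. DDIT3 encodes the factor CHOP and holds an annotated small RNA, and TRIB3 encodes a pseudokinase that binds ATF4. ATF3 was at 8.22 and 55.0 FPKM in MCF10A and at 6.35 and 83.0 in NOTCH1-labelled cells, and CEBPB at 51.8 and 114 and at 29.5 and 203. TP63, TP73, MYC and ATF4 were named after their values were seen. ATF4, the main factor of the integrated stress response, was at 184 FPKM with DMSO and 410.0 with ginkgolic acid in MCF10A and at 174 and 532 in NOTCH1-labelled cells. TP63, which marks basal epithelium, TP73 and MYC were at least 2-fold lower in MCF10A, with log2 ratios of −1.27, −2.57 and −1.58. In NOTCH1-labelled cells these were −0.08, −2.23 and 0.18. TP73 was at 1.76 FPKM with DMSO and 0.297 with ginkgolic acid in MCF10A and at 1.35 and 0.288 in NOTCH1-labelled cells. Both of its ratios thus rest on a value under 1 FPKM. TP63 holds an annotated small RNA.

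**Figure D4:**
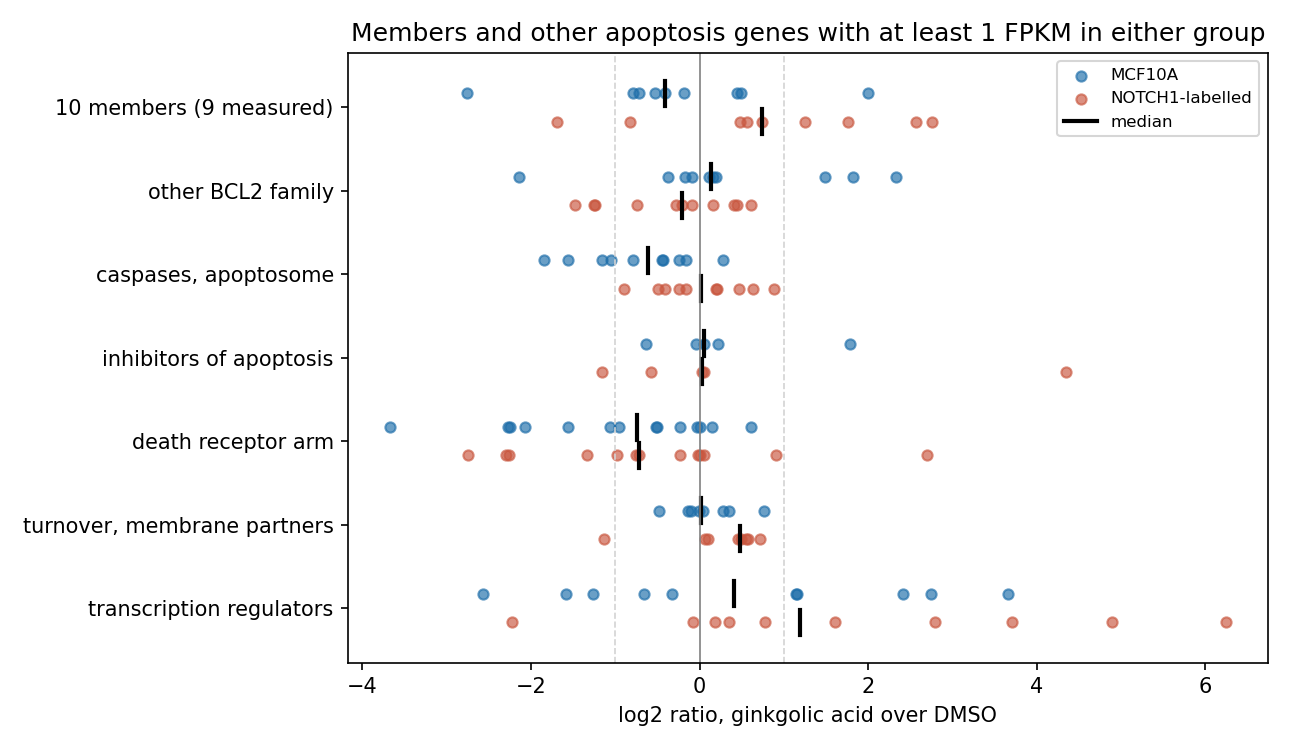
Log2 ratio of ginkgolic acid over DMSO (x axis) for the measured members and the measured genes of 6 apoptosis lists (y axis), blue for MCF10A and red for NOTCH1-labelled cells; each point is a gene, black bars are medians over genes and dashed lines mark 2-fold. The death receptor arm has medians of −0.74 and −0.71, and the members −0.41 and 0.74.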

How the data were processed

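RNA was sequenced from 8 samples in 4 groups of 2, with RNeasy extraction of total RNA and ScriptSeq Complete Gold libraries, per the labels' protocols. Whether the 2 samples of a group were separate cultures was not stated there. The submitters' processing notes name Cuffdiff 2.1.1, Cufflinks 2.1.1, Bowtie2 2.1.0 and TopHat2 2.0.8b and the build GRCh37 (hg19). The authors deposited FPKM values, 1 per gene and group, in 1 table for each line, per the file headers. How samples were combined, the annotation and the depth were not given in the sources used here.

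Unnamed rows (22.8% of the MCF10A table and 9.1% of the other), joined rows, loci under 200 bases, small RNA types of GENCODE 29, rows outside the main chromosomes and repeated symbols were left out. Log2 ratios set ginkgolic acid over DMSO with no pseudocount. Since the tables hold no q-value and no value per sample, a 2-fold size rule took the place of the planned test. All members are named, with up to 4 genes per list, those with the largest absolute ratio in either line where each group reached 1 FPKM. From the list of regulators, 1 gene is not reported here and entered none of the counts. Members and lists were chosen with earlier results of these data known. GENCODE served for gene types and overlaps, and RefSeq (GRCh38.p14) for promoters. The size rule and the search for like genes were run on simulated data with planted changes beyond the rule and a planted near copy of a gene. All were found. That checks the code only and says nothing about the error of the deposited values. Python 3.11.15, numpy 2.4.6, pandas 2.3.3 and matplotlib 3.10.9 were used.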

Additional observations from a re-analysis of the deposited data

Results flagged for a closer look

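MCL1, BCL2L1, BAX and BAK1 had a log2 ratio below 0 in MCF10A and above 0 in NOTCH1-labelled cells, each from 1 value per group. The difference of the ratios, NOTCH1-labelled less MCF10A, was 3.09 for BCL2L1, 1.43 for MCL1, 1.27 for BAX and 0.97 for BAK1. For BCL2L1, the NOTCH1-labelled DMSO value of 3.87 FPKM was the lowest of the 4 groups. These differences were not tested.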

How the results depend on the processing

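The counts of members beyond 2-fold were the same with log2(FPKM + 1), with no minimum FPKM, with a minimum of 5 FPKM and after the median log2 ratio of genes (−0.11 in MCF10A and 0.14 in NOTCH1-labelled cells) was removed. Differences between the lines of at least 1 went from 5 members to 4 under the log2(FPKM + 1) setting and under the removal of the medians. Leaving out the members that hold small RNAs (BBC3 and BID), chosen after seeing the data, removed BBC3 from the 4 higher members in NOTCH1-labelled cells. No ratio of a member, and no difference between lines, changed sign under these settings. The difference for BIK went from 1.07 to 0.63 with log2(FPKM + 1) and to 0.82 after removal of the medians. Those for BAX and BBC3 were only just above 1 after removal of the medians, at 1.02 each. BAK1 drops out at a minimum of 5 FPKM, and BCL2 enters with no minimum, at log2 ratios of −0.65 and −0.92. Leaving out each replicate could not be run, since the tables hold 1 value per group. No paired analysis was possible because the deposited columns carry no replicate number. BCL2, BAK1, BIK with ginkgolic acid in MCF10A and BCL2L1 with DMSO in NOTCH1-labelled cells (3.87 FPKM) rest on low values of unknown precision, and the 5.92-fold ratio and the difference of 3.09 for BCL2L1 rest on the last.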

Other observations

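The rows of each table fall into 2 runs, each of which starts again at chromosome 1, and the tables do not say what separates them. In the MCF10A table the first run held 14437 of the 70227 rows and 2 of the 10 members, PMAIP1 and BIK. In the NOTCH1-labelled table it held 4563 of 59662 rows and 5 members: MCL1, BCL2L1, PMAIP1, BBC3 and BIK. These are the members that were at least 2-fold apart in each line. Among rows above 0 in both groups, the smallest absolute log2 ratio in the first run was 0.37 in MCF10A and 0.54 in NOTCH1-labelled cells, and ratios down to 0 occurred in the second. Of all measured genes, the first run held 2955 of 17667 in MCF10A and 2197 of 19525 in NOTCH1-labelled cells. Of measured genes in the first runs, 77.9% and 77.5% were at least 2-fold apart, and of those in the second runs 31.9% and 32.8%. The runs were not used in any comparison.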
